A study of Mus musculus with 8 samples.

Results

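The genes described here are 10 genes of neutrophil secondary granules and of the S100 alarmins: S100a8, S100a9, Ngp, Camp, Ltf, Lcn2, Mmp8, Mmp9, Chil3 and Wfdc21. They were chosen by symbol. Each was read from the probe set that the platform annotation gives to that symbol alone, taking the one with the highest mean over the 8 arrays where there were several. All 10 of 10 were found among the 18193 genes measured, and only Mmp9 had more than 1 such probe set.

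Neutrophils load their granules in order as they mature. Primary granules with myeloperoxidase and serine proteases form in promyelocytes, secondary granules with lactoferrin, cathelicidin and lipocalin in myelocytes and metamyelocytes, and gelatinase granules later still. C/EBP epsilon, a leucine zipper transcription factor, is known to drive the secondary granule genes. S100A8 and S100A9 pair as calprotectin, a calcium- and zinc-binding complex of the neutrophil cytosol that acts as an alarmin, a danger signal, once it is released.

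The study measured RNA on Affymetrix mouse arrays in CD45.1+ cells, which lack the leukaemia transgene, from the marrow of chimeric mice. In leukemic mice, CD45.1+ hosts had been given marrow carrying BCR-ABL and SCL-tTA (CD45.2+) and an equal number of CD45.1+ marrow cells. In the mice called normal the graft lacked BCR-ABL. BCR-ABL is the kinase fusion that drives chronic myeloid leukaemia, and tTA, a tetracycline-controlled activator under SCL (Tal1) control, switches it on when tetracycline is taken out of the water. Cells were sorted 4 weeks after that. HSC are the CD150+ CD48- part of the KSL cells, which are lineage-negative, Kit+ and Sca-1+ and make up the other sort. The 4 groups of 2 arrays each are called leukemic-mouse HSC, normal-mouse HSC, leukemic-mouse KSL and normal-mouse KSL after the mouse the cells came from. Since the hosts were CD45.1+ as well, the sorted cells can include cells that the hosts still had. The sources used here give neither ages, sexes and strains of the mice nor whether the arrays of a group came from separate animals, so p-values measure the spread between these samples, which may be technical. All values are log2 expression as deposited, and their lowest value is 3.32.

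The sort gates were visible on the arrays. Slamf1, which encodes CD150, lay between 8.23 and 9.36 on the 4 HSC arrays and between 5.27 and 7.06 on the 4 KSL arrays. Cd48 lay between 6.19 and 8.12 in HSC and between 10.17 and 10.44 in KSL. Replicate arrays differed more in HSC, with a median standard deviation per gene of 0.21 in leukemic-mouse HSC and 0.20 in normal-mouse HSC, against 0.09 in leukemic-mouse KSL and 0.11 in normal-mouse KSL. Sex-linked genes gave a male pattern on array 1 of normal-mouse HSC and on array 1 of normal-mouse KSL. Xist, the RNA that silences an X chromosome in females, was at 5.79 and 3.67 on these arrays and between 11.63 and 11.99 on the other 6. The 2 arrays of normal-mouse HSC disagreed for the genes described here, with array 2 the lowest of all arrays in the mean of the standardised genes. Which of the 2 is the unusual one cannot be told. HSC results are given without array 2, and for single genes also without array 1, where this moves them.

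The promoters of the 6 genes on which the results turn are printed here because 7 of the 8 genes with a RefSeq promoter hold a C/EBP-type motif in it. Each sequence runs 5′ to 3′ from 250 bases before the annotated start site to 50 bases after it (RefSeq, GRCm38.p6), and capitals mark matches to TTNNGNAA on either strand.
Lcn2 promoter, chr2:32387690-32387989, minus strand: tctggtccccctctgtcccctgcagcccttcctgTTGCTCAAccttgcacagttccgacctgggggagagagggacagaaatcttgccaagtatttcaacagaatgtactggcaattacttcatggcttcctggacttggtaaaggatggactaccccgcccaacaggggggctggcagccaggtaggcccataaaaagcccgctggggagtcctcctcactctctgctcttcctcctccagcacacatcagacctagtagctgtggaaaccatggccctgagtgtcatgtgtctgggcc
Chil3 promoter, chr3:106167515-106167814, minus strand: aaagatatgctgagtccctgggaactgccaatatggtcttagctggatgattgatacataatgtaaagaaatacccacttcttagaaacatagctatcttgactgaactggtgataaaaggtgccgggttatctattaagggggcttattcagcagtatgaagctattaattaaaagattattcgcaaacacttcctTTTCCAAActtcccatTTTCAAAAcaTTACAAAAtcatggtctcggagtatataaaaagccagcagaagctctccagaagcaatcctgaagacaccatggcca
S100a8 promoter, chr3:90668821-90669120, plus strand: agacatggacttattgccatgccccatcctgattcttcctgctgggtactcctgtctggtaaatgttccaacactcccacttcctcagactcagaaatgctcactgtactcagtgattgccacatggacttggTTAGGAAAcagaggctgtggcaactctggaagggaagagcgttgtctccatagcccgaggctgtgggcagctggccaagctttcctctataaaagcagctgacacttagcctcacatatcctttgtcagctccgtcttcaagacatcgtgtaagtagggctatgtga
S100a9 promoter, chr3:90695672-90695971, minus strand: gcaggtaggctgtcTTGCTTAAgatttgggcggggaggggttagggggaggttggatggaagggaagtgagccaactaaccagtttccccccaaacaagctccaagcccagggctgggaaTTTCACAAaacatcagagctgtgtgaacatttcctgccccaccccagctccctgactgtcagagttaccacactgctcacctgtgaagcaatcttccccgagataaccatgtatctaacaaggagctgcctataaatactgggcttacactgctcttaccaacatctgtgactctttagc
Camp promoter, chr9:109849407-109849706, minus strand: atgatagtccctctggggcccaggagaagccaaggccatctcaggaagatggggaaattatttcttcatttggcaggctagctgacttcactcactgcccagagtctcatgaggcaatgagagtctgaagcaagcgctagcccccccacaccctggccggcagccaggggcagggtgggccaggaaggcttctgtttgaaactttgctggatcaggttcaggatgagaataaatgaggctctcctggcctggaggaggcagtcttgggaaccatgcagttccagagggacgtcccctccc
Ngp promoter, chr9:110419558-110419857, plus strand: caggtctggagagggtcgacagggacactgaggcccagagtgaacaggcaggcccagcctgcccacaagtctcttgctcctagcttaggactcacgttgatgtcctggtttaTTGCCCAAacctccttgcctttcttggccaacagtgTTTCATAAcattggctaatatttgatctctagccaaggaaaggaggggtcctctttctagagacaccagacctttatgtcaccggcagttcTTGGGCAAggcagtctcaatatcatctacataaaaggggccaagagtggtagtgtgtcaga

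The motif TTNNGNAA, with its reverse complement TTNCNNAA, was found in 40.7% of 32851 mouse promoters of the same length. Among the genes described here it was in the promoters of S100a8, S100a9, Ngp, Ltf, Lcn2, Mmp8 and Chil3, and these letters were not in the Camp window. Ngp had 3 matches, whose first bases lay 138, 102 and 11 bases before the start site. Chil3 had 3 matches, at 53, 37 and 27 bases before it, which lie close together. The PU.1-type motif GAGGAA or its complement TTCCTC was in 4 of the 8 promoters and in 28.3% of all. A STAT-type motif, TTCNNNGAA, which is its own reverse complement, was in 1 of the 8, Chil3, and in 8.3% of all. The GATA-type motif AGATAA or its complement TTATCT was in 3 of the 8 and in 11.2% of all. TATAAA, read on the forward strand only, was in 3 of the 8 and in 8.32% of all. No match of one motif in these promoters shared a base with a match of another, and a match describes letters in this window, not a bound site. In the genome S100a8 and S100a9 are neighbours on chromosome 3 with 0 protein-coding genes between them. Camp and Ngp lie on chromosome 9 with 8 protein-coding genes between them, and Ngp and Ltf with 20.

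In both cell types Lcn2, Wfdc21 and Chil3 were higher on both arrays of leukemic mice than on either array of normal mice, with differences of 1.74 to 3.88 log2 units. These were 3 of the 10 genes, and 4.28% of all genes lay above normal without overlap in both cell types. None of the 10 genes passed the test over all genes in HSC or in KSL, with limma and Benjamini-Hochberg adjustment at 0.05. The share of all genes that passed was 0.0989% in HSC and 0.044% in KSL. In sorted bulk samples, fewer cells that hold a transcript and less of it per cell cannot be told apart.

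Lcn2 encodes lipocalin 2, which starves bacteria of iron by binding their siderophores. It was at 9.78 and 9.09 in leukemic-mouse HSC, against 7.21 and 3.90 in normal-mouse HSC. The KSL values were 9.53 and 9.20 in leukemic mice, against 6.34 and 6.90 in normal mice. All 4 arrays of leukemic mice lay above all 4 arrays of normal mice. The difference between leukemic and normal mice was 3.88 ± 1.13 in HSC (log2, SE, limma adjusted p = 0.269, n = 2 each) and 2.74 ± 1.13 in KSL (adjusted p = 0.676). Without array 2 of normal-mouse HSC the HSC difference was 2.22, and without array 1 it was 5.54. Fits of this kind assume that the lone remaining array varies like the other groups.

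Wfdc21 encodes a small secreted protein with a WAP domain. It was at 8.30 and 8.15 in leukemic-mouse HSC, against 5.72 and 4.18 in normal-mouse HSC. On the KSL arrays it read 9.92 and 9.46 in leukemic mice, against 7.76 and 8.14 in normal mice. Within each cell type the groups lay apart by more than the spread of their arrays, although leukemic-mouse HSC and normal-mouse KSL reached similar levels. The difference was 3.28 ± 0.54 in HSC (limma adjusted p = 0.141; unadjusted p = 0.00229) and 1.74 ± 0.54 in KSL (adjusted p = 0.536). Without array 1 of normal-mouse HSC the HSC difference was 4.05, and without array 2 it was 2.51.

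Chil3 encodes Ym1, a chitinase-like protein without chitinase activity. It was at 9.07 and 7.12 in leukemic-mouse HSC, against 6.67 and 5.56 in normal-mouse HSC. In KSL it was at 7.77 and 6.97 in leukemic mice, against 5.08 and 5.27 in normal mice. The 2 arrays of leukemic-mouse HSC differed by 1.95, about as much as the groups did. The difference was 1.98 ± 0.78 in HSC (limma adjusted p = 0.381) and 2.20 ± 0.78 in KSL (adjusted p = 0.599). The HSC difference was 1.00 ± 0.62 without array 1 of leukemic-mouse HSC (limma adjusted p = 0.504) and 2.96 ± 0.62 without array 2 (0.144). It was 1.43 without array 2 of normal-mouse HSC and 2.53 without array 1 of normal-mouse HSC. A further probe set that the annotation gives to both Chil3 and Chil4 was not used in the test, and was at 7.09 and 5.95 in leukemic-mouse HSC against 5.36 and 4.83 in normal-mouse HSC. In KSL that shared probe set was at 6.71 and 5.70 in leukemic mice against 4.79 and 3.81 in normal mice.

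**Figure D1:**
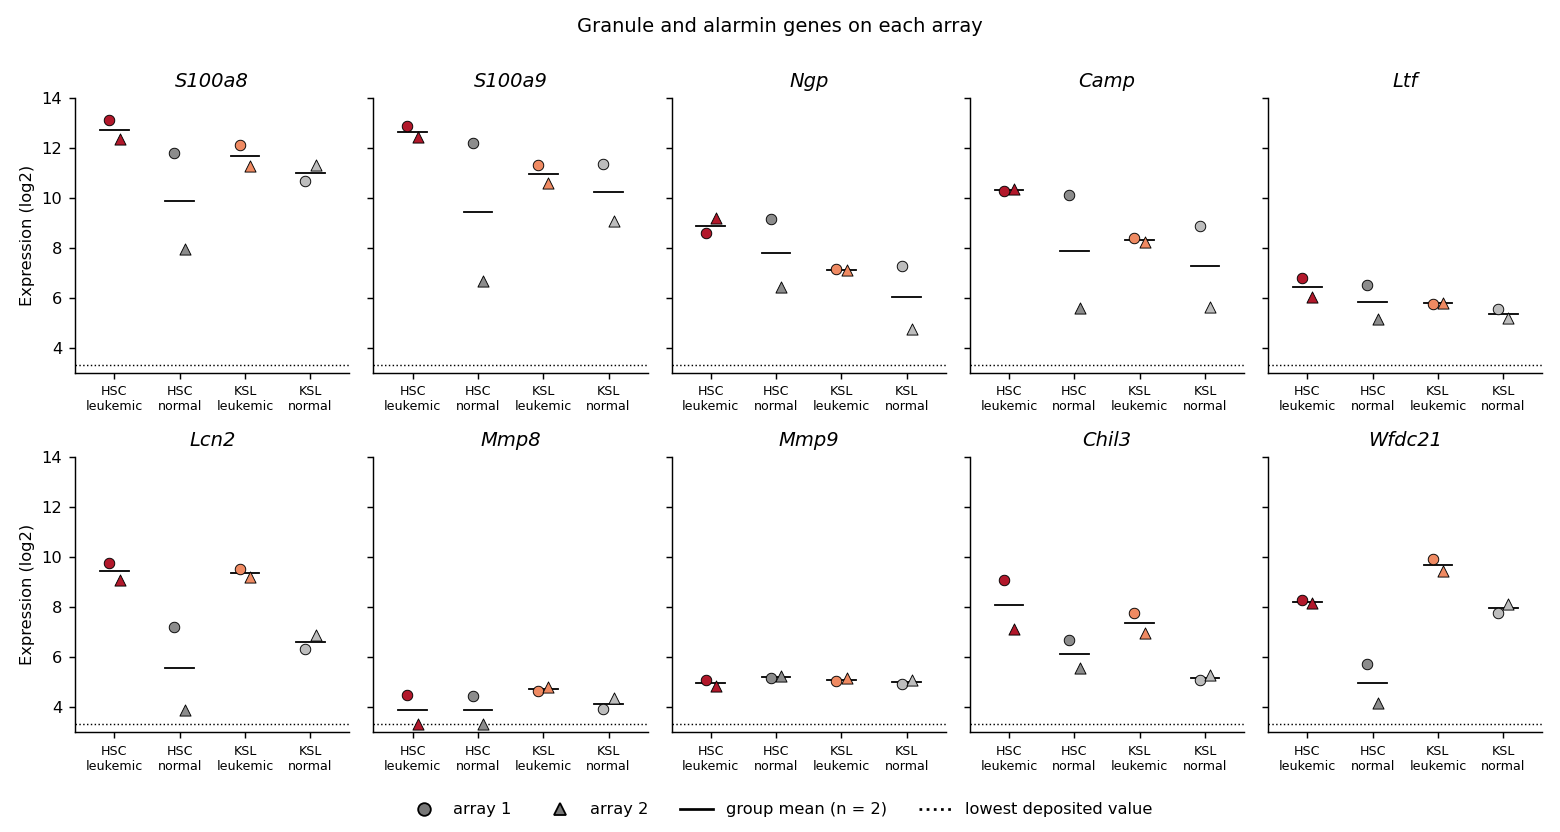
Log2 expression of each of the 10 genes on the 8 arrays, with circles for array 1, triangles for array 2, a bar at the mean of each group (n = 2) and a dotted line at the lowest deposited value of 3.32. Lcn2, Wfdc21 and Chil3 lie higher in leukemic than in normal mice in both cell types, while S100a9, Camp and Ngp are spread widely between the arrays of normal mice.

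The alarmin genes were separated by group in HSC only through a narrow margin to array 1 of normal mice. S100a8 was at 13.11 and 12.34 in leukemic-mouse HSC, against 11.79 and 7.93 in normal-mouse HSC. The KSL values were 12.09 and 11.27 in leukemic mice, against 10.65 and 11.31 in normal mice, and the groups overlapped. Its difference was 2.86 ± 1.33 in HSC (limma adjusted p = 0.447) and 0.70 ± 1.33 in KSL (adjusted p = 1). S100a9 was at 12.86 and 12.43 in leukemic-mouse HSC, against 12.17 and 6.66 in normal-mouse HSC. On the KSL arrays it read 11.29 and 10.58 in leukemic mice, against 11.36 and 9.07 in normal mice, so that the groups overlapped there too. Its difference was 3.23 ± 1.97 in HSC (limma adjusted p = 0.564). Without array 2 of normal-mouse HSC the HSC differences were 0.93 ± 0.59 for S100a8 (limma adjusted p = 0.549) and 0.48 ± 1.10 for S100a9 (adjusted p = 0.939), and without array 1 they were 4.79 and 5.98.

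Camp and Ngp had values spread widely over the arrays of normal mice, as S100a9 had. Camp encodes the precursor of CRAMP, the mouse cathelicidin peptide. It was at 10.27 and 10.35 in leukemic-mouse HSC, against 10.12 and 5.59 in normal-mouse HSC. In KSL it was at 8.37 and 8.24 in leukemic mice, against 8.88 and 5.64 in normal mice. The arrays of leukemic mice agreed closely with each other in both cell types, and array 1 of normal mice lay near or above them. Ngp, neutrophilic granule protein, is a relative of the cathelicidins. It was at 8.57 and 9.17 in leukemic-mouse HSC, against 9.13 and 6.42 in normal-mouse HSC, and the groups overlapped. The KSL values were 7.13 and 7.10 in leukemic mice, against 7.28 and 4.74 in normal mice. The HSC difference was 2.45 ± 1.82 for Camp (limma adjusted p = 0.632) and 1.09 ± 1.23 for Ngp (adjusted p = 0.781). Without array 2 of normal-mouse HSC it was 0.19 for Camp and -0.26 for Ngp, and without array 1 it was 4.72 and 2.45. Without array 2 of normal-mouse KSL the KSL difference was -0.58 for Camp and -0.17 for Ngp, and without array 1 it was 2.66 and 2.37.

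Ltf encodes lactoferrin, the iron-binding protein that defines secondary granules. It was at 6.80 and 6.02 in leukemic-mouse HSC, against 6.52 and 5.16 in normal-mouse HSC. On the KSL arrays it read 5.74 and 5.80 in leukemic mice, against 5.54 and 5.18 in normal mice, without overlap. Its differences were 0.57 ± 0.53 in HSC (limma adjusted p = 0.715) and 0.41 ± 0.53 in KSL (adjusted p = 1). In normal-mouse HSC the SD of its 2 arrays was 0.96, against 3.21 for Camp.

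The granule metalloproteinases stayed at low values. Mmp8, neutrophil collagenase, was at 4.48 and 3.32 in leukemic-mouse HSC, against 4.46 and 3.32 in normal-mouse HSC. In KSL it was at 4.66 and 4.82 in leukemic mice, against 3.93 and 4.36 in normal mice. The value of 3.32 is the lowest deposited one, so array 2 of each HSC group gives no order. Mmp9, gelatinase B of the gelatinase granules, was at 5.10 and 4.86 in leukemic-mouse HSC, against 5.15 and 5.23 in normal-mouse HSC. The KSL values were 5.04 and 5.17 in leukemic mice, against 4.92 and 5.09 in normal mice. The Mmp9 difference was -0.21 ± 0.11 in HSC (limma adjusted p = 0.497) and 0.10 ± 0.11 in KSL (adjusted p = 1), and the mean of both Mmp9 probe sets gave 0.13 in HSC, the opposite sign.

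Counted together, 9 of the 10 genes had a positive difference in HSC, against 46.3% of all genes, and the median was 2.22 against 0.00 for all genes. All genes include 1290 at the lowest value on all 8 arrays, which can have no sign, and 0 of the 10 genes are among these. The 10 genes were chosen with earlier results of these data known. Several also vary together over the arrays, so they are not separate observations. In KSL 10 of 10 were positive, against 42.5%, with a median of 0.88 against 0.00. In HSC the leukemic arrays lay above the normal ones without overlap for 6 of the 10 genes, against 16.0% of all genes, and below them for 1, Mmp9, against 16.7%. With array 2 of normal-mouse HSC left out, 6 of the 10 genes had a positive HSC difference, against 46.5% of all genes, with a median of 0.33, and without array 1 9 of 10 did, with a median of 3.29. In that comparison without array 2, both leukemic arrays lay above the lone normal one for 6 of 10, against 29.4% of all genes. In KSL they lay above for 5 of 10, against 20.5%, and below for 0 of 10, against 24.1%. With array 2 of normal-mouse KSL left out, 7 of 10 KSL differences were positive, against 44.6% of all genes, with a median of 0.52. At an unadjusted p under 0.05, 2 of 10 were higher in HSC (Wfdc21 and Lcn2), against 6.54% of all genes, and 2 in KSL (Wfdc21 and Chil3), against 3.5%. The difference averaged over both cell types, a comparison added after the values were seen, was 3.31 ± 0.80 for Lcn2, 2.51 ± 0.38 for Wfdc21 and 2.09 ± 0.55 for Chil3 (limma adjusted p = 0.227, 0.143 and 0.251), and 0 of the 10 genes passed it, where 0.0824% of all genes passed. These averages without array 2 of normal-mouse HSC were 2.48 ± 0.28 for Lcn2, 2.12 ± 0.18 for Wfdc21 and 1.81 ± 0.62 for Chil3 (limma adjusted p = 0.0916, 0.0786 and 0.31).

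**Figure D2:**
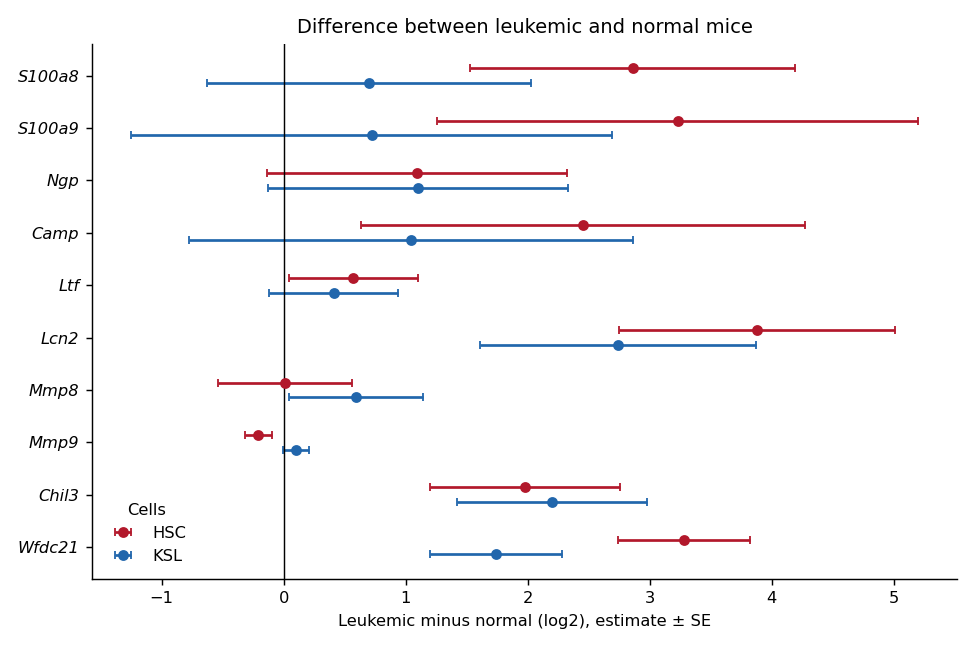
Difference between leukemic and normal mice for each gene on the log2 scale (x axis), with points at the estimate and bars of 1 SE from the limma fit (n = 2 arrays per group), in HSC (red) and KSL (blue). The bars are widest for S100a9 and Camp, and 0 of the 10 genes passed in either cell type.

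The same contrast was tested between the cell types. The HSC difference minus the KSL difference was 1.54 ± 0.77 for Wfdc21 (limma adjusted p = 0.646), 2.16 ± 1.89 for S100a8 (0.83) and 1.14 ± 1.60 for Lcn2 (0.918). None of the 10 genes passed, with 0 of 10 at an unadjusted p under 0.05, against 9.09% of all genes, and 0.0055% of all genes passed. Without array 2 of normal-mouse HSC the values were 0.77 ± 0.37 for Wfdc21 (limma adjusted p = 0.491), 0.23 ± 0.76 for S100a8 (0.993) and -0.52 ± 0.56 for Lcn2 (0.811). The interaction was positive for 6 of the 10 genes with that array and for 2 without it, with medians of 0.65 and -0.52. With this spread between arrays, no difference between HSC and KSL in this contrast was detectable for the 10 genes.

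For these genes the pair of arrays of normal-mouse HSC disagreed widely. Array 1 exceeded array 2 by 5.50 for S100a9, 4.53 for Camp, 3.86 for S100a8, 3.31 for Lcn2 and 2.71 for Ngp on the log2 scale. A gap of at least 2 log2 units in that direction, a limit set after the values were seen, was met by these 5 of the 10 genes and by 0.83% of all genes. In normal-mouse KSL array 1 exceeded array 2 by 3.24 for Camp, 2.54 for Ngp and 2.29 for S100a9, and 0.121% of all genes met the same limit. For S100a8, Lcn2 and Wfdc21 array 1 was instead below array 2 in normal-mouse KSL, by values of -0.66, -0.56 and -0.38. In leukemic mice the array gaps of Camp, Ngp and S100a9 were -0.08, -0.60 and 0.43 in HSC and 0.13, 0.03 and 0.71 in KSL.

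Only 10 genes met the limit in both normal groups, which is 0.055% of all genes. They were Camp, Ngp and S100a9, the Y-linked genes Eif2s3y, Kdm5d and Uty, and Btbd11, Card6, Chn2 and Ermap. Array 1 is in both cell types the array with the male pattern, so high Camp, Ngp and S100a9 in normal mice went together with that pattern, and sex cannot be told apart from anything else these arrays share. Ermap, an erythroid membrane protein gene, was at 10.30 and 5.38 in normal-mouse HSC and at 9.17 and 6.97 in normal-mouse KSL. The summed linear level of 10 measured erythroid markers was also highest on array 1 of normal-mouse HSC, at 14416, against 6956 on array 2, and its part was not tested.

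With both male-pattern arrays left out, each normal group held 1 array. The differences were then 4.72 ± 0.09 for Camp in HSC (limma adjusted p = 0.0692) and 2.66 ± 0.09 in KSL (adjusted p = 0.27). For Ngp they were 2.45 ± 0.32 in HSC (limma adjusted p = 0.174) and 2.37 ± 0.32 in KSL (0.323), and for S100a9 5.98 ± 0.45 (0.135) and 1.86 ± 0.45 (0.439). Lcn2 had 5.54 ± 0.41 in HSC (limma adjusted p = 0.135) and 2.46 ± 0.41 in KSL (0.361). With a term for the male-pattern arrays in the fit of all 8 arrays the differences were 4.39 ± 0.39 in HSC and 2.98 ± 0.39 in KSL for Camp (limma adjusted p = 0.172 and 0.282), and 2.40 ± 0.26 and 2.41 ± 0.26 for Ngp (0.18 and 0.263). In the fit without these arrays, values rest on 1 normal array per cell type, assumed to vary like the leukemic arrays. In the fit with the term 0 of the 10 genes passed between leukemic and normal mice in HSC or KSL. There 0 of all 18193 genes passed too, so that count does not tell the 10 genes from the rest.

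**Figure D3:**
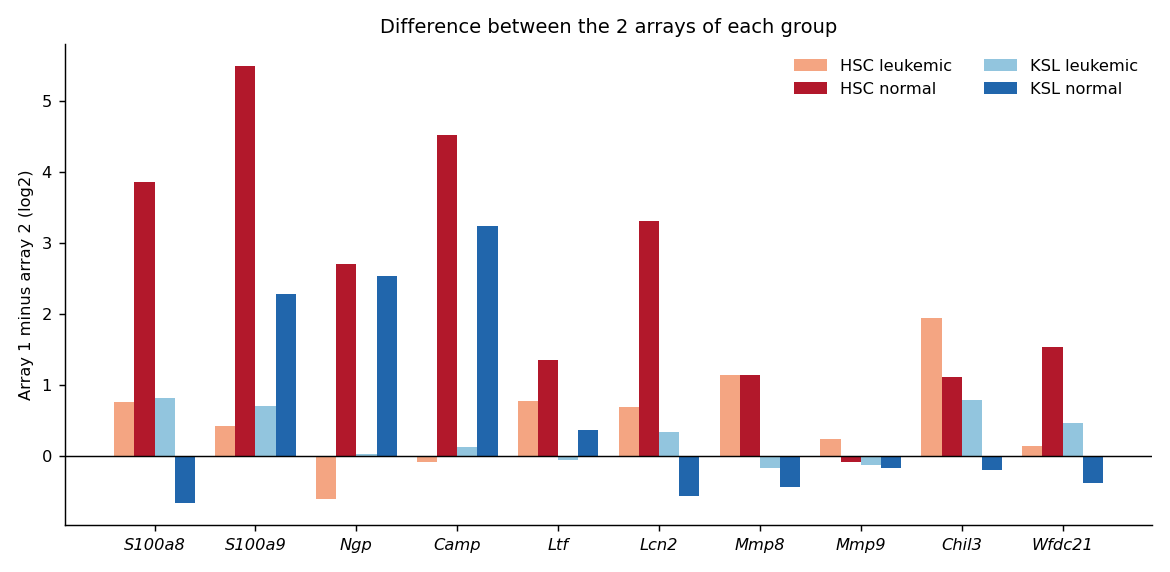
Array 1 minus array 2 on the log2 scale for each gene in the 4 groups. The gap is large for S100a8, S100a9, Ngp, Camp and Lcn2 in normal-mouse HSC, and Camp, Ngp and S100a9 also reach 3.24, 2.54 and 2.29 in normal-mouse KSL.

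Between the cell types, the values of the alarmin and cathelicidin-type genes lay higher in leukemic-mouse HSC than in leukemic-mouse KSL. Camp was at 10.27 and 10.35 in leukemic-mouse HSC and at 8.37 and 8.24 in leukemic-mouse KSL, a difference of 2.01 ± 1.82 (limma adjusted p = 0.596). Fitted on the 4 arrays of leukemic mice alone, the same difference of 2.01 had an SE of 0.07 and passed (limma adjusted p = 0.0499). In that fit 94 of all 18193 genes passed, and it leaves out the arrays of normal mice, over which Camp was spread widely. The differences were 1.76 for Ngp, 1.71 for S100a9, 1.04 for S100a8 and 0.64 for Ltf. These 5 of the 10 genes lay higher in HSC without overlap, against 28.2% of all genes, and Wfdc21 and Mmp8 lay lower, against 23.2%. Wfdc21 had a difference of -1.46 ± 0.54 in leukemic mice (limma adjusted p = 0.209) and of -3.00 ± 0.54 in normal mice (adjusted p = 0.088). In normal mice it passed once genes at the lowest value on all 8 arrays were left out (limma adjusted p = 0.0329), where 525 of 16903 genes passed. Without array 1 of normal-mouse HSC the difference in normal mice was -3.77. In normal mice 2 of the 10 genes lay higher in HSC without overlap, Chil3 and Mmp9, against 24.2% of all genes, and 1 lay lower, Wfdc21, against 19.3%. Ngp overlapped there, at 9.13 and 6.42 in HSC against 7.28 and 4.74 in KSL (1.77 ± 1.23, limma adjusted p = 0.585). With a term for the male-pattern arrays its difference was 1.77 ± 0.23 (limma adjusted p = 0.0859). In leukemic and in normal mice 0 of the 10 genes passed, while 5.86% and 1.8% of all genes did. At an unadjusted p under 0.05 there was 1 of 10 in each, Wfdc21, against 23.0% and 16.2% of all genes.

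Other genes of the neutrophil programme are given beside the 10. Of 18 other secondary granule and secretory genes, 0 passed between leukemic and normal mice in HSC, where 0.0989% of all genes did. Of the 18, 12 were positive, against 46.3% of all genes, with a median of 0.42. Slpi, a secretory leukocyte protease inhibitor, was at 12.08 and 13.29 in leukemic-mouse HSC, against 7.83 and 8.01 in normal-mouse HSC, a difference of 4.77 ± 0.44 (limma adjusted p = 0.0819). In KSL Slpi was at 12.14 and 11.90 in leukemic mice and at 11.63 and 12.09 in normal mice. Cybb, the gp91 subunit of the NADPH oxidase, was at 6.69 and 6.92 in leukemic-mouse HSC, against 4.58 and 4.08 in normal-mouse HSC (2.48 ± 0.23, limma adjusted p = 0.0845). In KSL 0 of the 18 passed, where 0.044% of all genes did, with 11 positive, against 42.5% of all genes, and a median of 0.25. Cybb had a difference of 1.20 ± 0.23 there (limma adjusted p = 0.282) and Hp, haptoglobin, of 1.32 ± 0.28 (0.342).

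Primary granule genes lay lower in HSC than in KSL. All 11 measured members had negative differences in both kinds of mice, with 7 passing in leukemic mice (median -2.16) and 5 in normal mice (median -2.34), where 5.86% and 1.8% of all genes passed in either direction. With the replicate number as a block 3 and 2 of the 11 passed, where 401 and 19 of all 18193 genes passed in either direction. With single arrays left out the counts changed, as they did over all genes. All 11 differences stayed negative in these fits. The serine protease gene Ctsg fell by 6.49 in normal-mouse HSC relative to normal-mouse KSL (limma adjusted p = 0.00482) and Ms4a3, a membrane protein gene, fell by 5.32 (0.00482). Of the 18 other secondary granule genes, 5 fell and 0 rose in normal-mouse HSC relative to normal-mouse KSL, where Cybb fell by 3.98 and Hp fell by 3.36 (limma adjusted p = 0.0137 and 0.0229). In leukemic mice 7 fell and 0 rose. With the block 4 fell in leukemic mice and 0 in normal mice, against the same 401 and 19 of all genes. Without array 1 of leukemic-mouse KSL fewer fell, and fewer of all genes passed as well. The 10 genes described here had a median difference between HSC and KSL of 0.68 in leukemic mice and -0.03 in normal mice, with all genes at 0.01 and 0.00. Between leukemic and normal mice 0 of the 11 primary granule genes passed, with a median of 0.35 in HSC and 0.44 in KSL. Ctsg was at 8.74 and 9.28 in leukemic-mouse HSC, against 6.50 and 6.04 in normal-mouse HSC (limma adjusted p = 0.0819).

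**Figure D4:**
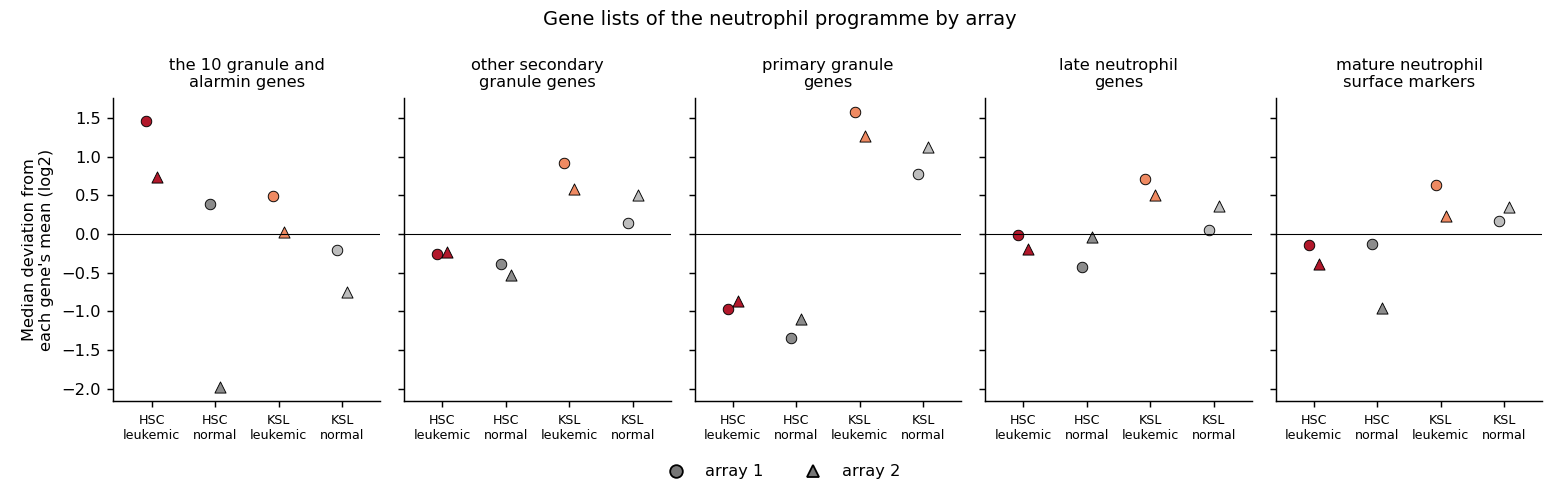
Median deviation of each gene list from its genes' means over the 8 arrays (log2), with circles for array 1 and triangles for array 2 of each group. The 10 genes described here are lowest on array 2 of normal-mouse HSC, at -1.98, and highest on array 1 of leukemic-mouse HSC, at 1.46, while the primary granule genes separate HSC from KSL.

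Late neutrophil genes, a list with stefins, Il1b and Trem1, had 10 measured members of 15 listed. Of these 10, 0 passed between leukemic and normal mice, with medians of 0.04 in HSC and 0.41 in KSL. These values say little of the stefins. Stfa2l1 was at the lowest value on all 8 arrays, Stfa3 was at most 3.56, and Stfa1 and Stfa2 were not analysed. A list of myeloid and other transcription factors had 14 measured members and 0 passed in either cell type, with medians of 0.26 in HSC and -0.16 in KSL. It is not confined to the neutrophil lineage, since it also holds Irf8, Gata1 and Gata2. In HSC 9 were positive and 5 negative, and in KSL 6 were positive and 8 negative. Cebpe was not analysed here. Cebpa, which starts granulocyte commitment, was at 7.58 and 6.79 in leukemic-mouse HSC against 7.28 and 5.37 in normal-mouse HSC, and it was lowest on array 2 of normal-mouse HSC. Irf8 had a difference of 1.58 ± 0.24 in HSC (limma adjusted p = 0.134) and Cux1 of 0.60 ± 0.18 (0.273). In KSL Gata2 had a difference of -0.96 ± 0.21 (limma adjusted p = 0.349) and Gata1 of -1.44 ± 0.32 (0.358). Among 11 other S100 genes 0 passed, with medians of 0.01 in HSC and 0.04 in KSL, so the S100 family as a list had medians near 0.

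Receptors and partners of the alarmins and of lipocalin 2 had 13 measured members and 0 passed. Their median was -0.39 in HSC, where 10 of 13 were negative, against 45.8% of all genes, and -0.03 in KSL. Ly96, which encodes MD-2, the partner of the calprotectin receptor TLR4, was at 4.94 and 4.22 in leukemic-mouse HSC, against 5.95 and 5.54 in normal-mouse HSC (-1.17 ± 0.31, limma adjusted p = 0.236). Tlr4 itself was at 6.36 and 6.75 in leukemic-mouse HSC, against 6.87 and 8.0 in normal-mouse HSC. Of 16 other matrix metalloproteinases and their inhibitors, 1 passed in leukemic-mouse HSC, as a higher value, where 0.0989% of all genes passed in either direction. That gene, the collagenase Mmp13, was at 5.04 and 4.76 in leukemic-mouse HSC and at the lowest value of 3.32 on both arrays of normal-mouse HSC, which makes it at least 2.99-fold higher (limma adjusted p = 0.0382). It was at that lowest value on the KSL arrays too, so the residual spread behind its p comes from the 2 arrays of leukemic-mouse HSC alone. The limma adjusted p was 0.146 with the replicate number as a block, 0.172 with a term for the male-pattern arrays and 0.525 on the 4 HSC arrays alone. Mmp13 did not pass in these fits, where 0 of all genes passed.

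Surface markers of mature neutrophils gave values beside these results. Of 14 listed, 10 were measured, and Ly6g, which defines mouse neutrophils, was not analysed here. Their summed linear level was 2519 and 1902 in leukemic-mouse HSC, 2032 and 1184 in normal-mouse HSC, 3806 and 3779 in leukemic-mouse KSL and 3341 and 4186 in normal-mouse KSL. The sum was thus lowest on array 2 of normal-mouse HSC, the array that was lowest for the 10 genes. Most of the sum on that array came from Selplg, Csf3r and Itgb2, at 9.10, 8.12 and 7.68 there. Between leukemic and normal mice 0 of 10 passed, with a median of 0.35 in HSC and 0.08 in KSL. In HSC 7 were positive and 3 negative, against 46.3% and 45.8% of all genes. The 3 negative ones were Il1r2, Cd33 and Fpr2. Il1r2 was at 4.61 and 3.73 in leukemic-mouse HSC against 5.32 and 3.99 in normal-mouse HSC. Cd33 was at 4.79 and 4.24 against 5.36 and 3.82. Clec5a, a myeloid lectin receptor gene, was at 5.44 and 5.95 in leukemic-mouse HSC, against 3.34 and 3.68 in normal-mouse HSC (2.19 ± 0.40, limma adjusted p = 0.157), and its KSL difference was 1.56 ± 0.40 (0.446). Itgb2, the CD18 integrin chain, was at 9.54 and 8.77 in leukemic-mouse HSC, against 8.52 and 7.68 in normal-mouse HSC (1.06 ± 0.38, limma adjusted p = 0.343). Itgam, which encodes CD11b, was at 7.13 and 4.57 in leukemic-mouse HSC against 3.87 and 3.33 in normal-mouse HSC, and at 5.59 and 5.17 in leukemic-mouse KSL against 5.15 and 5.20 in normal-mouse KSL. Cxcr2, a neutrophil chemokine receptor gene, was between 4.21 and 5.71 on all 8 arrays, and Fpr2 was at the lowest value on 6 of 8. The part of mature neutrophils in the result was not tested. For monocyte and macrophage markers, 14 of 14 measured, the summed level was 1144 and 1112 in leukemic-mouse HSC and 681 and 795 in normal-mouse HSC. It was 4224 and 4990 in leukemic-mouse KSL and 4341 and 5204 in normal-mouse KSL. Such a sum weighs bright genes most. Of the 14, 7 had a positive and 7 a negative HSC difference, with a median of 0.02. In KSL 5 were positive and 9 negative, with a median of -0.16.

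Control probes that read RNA quality moved with the HSC groups as well. The 3′ minus 5′ difference was -0.36 and -0.75 in leukemic-mouse HSC against -2.04 and -1.74 in normal-mouse HSC for Tfrc, and 1.19 and 1.03 against 0.78 and 0.83 for Gapdh. For Actb it was -0.42 and -0.50 in leukemic-mouse HSC against -0.37 and -0.38 in normal-mouse HSC, the other direction. The part of these control values in the HSC differences was not tested.

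Among the genes, pairs differed in how alike their 8 array values were, given here as Pearson correlations over 8 arrays that come from the same 4 groups. The correlation was 0.94 between S100a9 and Camp, 0.92 between Ngp and Camp, 0.90 between S100a8 and S100a9, 0.90 between S100a8 and Lcn2 and 0.83 between Lcn2 and Wfdc21. It was 0.75 between S100a9 and Ngp, and Ltf had 0.87 with Camp, 0.83 with Ngp and 0.82 with S100a9. It was -0.04 between Ngp and Wfdc21. The mean of the 10 standardised genes was 0.93 and 0.20 in leukemic-mouse HSC, 0.40 and -1.22 in normal-mouse HSC, 0.37 and 0.32 in leukemic-mouse KSL and -0.40 and -0.60 in normal-mouse KSL. The other genes whose 8 array values were most like this mean, by Pearson correlation, were Wdr37 (0.965), E230016M11Rik (0.964), Spata1 (0.96), Pex16 (0.958), Gab2 (0.946), Ppm1a (0.939), Tmem183a (0.936), Rchy1 (0.934), Fdx1 (0.932) and Ugp2 (0.93). Gab2, a docking protein of cytokine receptor and BCR-ABL signalling, was at 9.51 and 8.88 in leukemic-mouse HSC against 9.29 and 8.18 in normal-mouse HSC, and at 8.92 and 8.84 in leukemic-mouse KSL against 8.56 and 8.55 in normal-mouse KSL. None of these 10 genes is on the lists of neutrophil genes used here.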

How the data were processed

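RNA of 8 sorted samples was measured on Affymetrix mouse arrays. The authors deposited log2 values for 45101 probe sets, and the submitters' processing notes name RMA, with no version. No source used here gives later steps. The series' design text names a Nugen amplification kit and the labels' protocol the standard Affymetrix method, so the amplification is not settled. Deposited values had a floor of 10 on the linear scale, which held 14.9% to 15.8% of probe sets on each array, so differences of dim genes are understated. Array medians lay between 5.74 and 5.86. The platform annotation gave 1 symbol to 34945 probe sets, several to 932 and none to 9160. The probe set with the highest mean represented each of 18193 genes, with no filter on dim genes.

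Sample titles gave the groups, except for leukemic-mouse KSL, whose titles hold conflicting words and whose group came from the disease state label. The descriptions, which mention embryos, were not used. A limma 3.58.1 model (R 4.3.3, eBayes) with a mean for each group took in all 8 arrays, leaving 4 residual and 0.67 prior degrees of freedom. One spread per gene serves all groups, although HSC replicates differed more than KSL replicates, which tends to make HSC p-values too low. Tests were two-sided, and p was adjusted over all genes by Benjamini-Hochberg with a threshold of 0.05. The number of arrays limits the precision. Genes named beside the 10 are up to 4 passing members of each list, or the 2 with the smallest p, genes of the sort gates, and the 10 most alike by correlation; any others were picked with their values in view. The 10 genes and the lists were chosen with earlier results of these data known. Alternatives covered filters, scaling, probe set choice, array weights, prior trend, replicate and sex terms, and leaving out arrays. Tables came from Python 3.11.15 with pandas 2.3.3, and figures from matplotlib 3.10.9. Promoters came from RefSeq GRCm38.p6, with 8 of the 10 genes matched.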

Additional observations from a re-analysis of the deposited data

How the results depend on the processing

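The number of the 10 genes that passed was 0 in all 5 comparisons and stayed 0 under most alternatives. It was 1, Wfdc21, for normal-mouse HSC against normal-mouse KSL without genes at the lowest value on all 8 arrays, without the lowest 40% of genes, and with arrays shifted to a common median. It was 1, Camp, for leukemic-mouse HSC against leukemic-mouse KSL on the 4 arrays compared and without the male-pattern arrays. With single arrays left out it lay between 0 and 1 for leukemic-mouse against normal-mouse HSC and for normal-mouse HSC against normal-mouse KSL, with 1 without array 1 of normal-mouse HSC, and at 0 in the other comparisons. The replicate numbers were not taken to pair the samples, and the main fit treats all arrays as separate samples. Over all genes the correlations of deviations between groups lay between -0.04 and 0.09. Such low values cannot exclude that arrays of the same number share a source. Array 1 of both normal groups carried the male pattern, so a shared source is open for these. With the replicate block 0 of the 10 genes passed in any comparison, and 0 of all genes passed between leukemic-mouse and normal-mouse HSC, against 18 without it. The block left 19 calls of 328 for normal-mouse HSC against normal-mouse KSL and 401 of 1067 for the same in leukemic mice. With a term for the male-pattern arrays 0 of the 10 passed as well, and 0 of all genes passed between leukemic and normal mice in HSC or in KSL. Of 930 alternative values of single genes, 883 kept sign and side of the threshold, 7 passed only in the alternative and 40 changed sign. The 883 overstate stability, since many could not change. Filters, the block and leaving out an array of neither group compared leave the estimate as it is. Where 0 of all genes passed, no gene could pass. The mean of all probe sets gave Mmp9 0.13 in leukemic-mouse against normal-mouse HSC, 0.12 in the interaction and -0.12 for normal-mouse HSC against normal-mouse KSL. Without the male-pattern arrays the interaction was 0.07 for Ngp, 0.20 for Mmp8 and 0.43 for Chil3, and normal-mouse HSC against normal-mouse KSL was -0.06 for Camp and -0.01 for Ltf. With single arrays left out, leukemic-mouse minus normal-mouse HSC ranged from -0.26 to 2.45 for Ngp, from -0.11 to 1.24 for Ltf and from -0.57 to 0.59 for Mmp8. Leukemic-mouse minus normal-mouse KSL ranged from -0.42 to 1.86 for S100a9, from -0.17 to 2.37 for Ngp and from -0.58 to 2.66 for Camp. The interaction ranged from -0.24 to 5.27 for S100a9, from -0.85 to 3.68 for Camp, from -1.37 to 1.35 for Ngp, from -0.52 to 0.84 for Ltf, from -0.52 to 2.80 for Lcn2 and from -1.19 to 0.76 for Chil3. normal-mouse HSC minus normal-mouse KSL ranged from -3.05 to 0.81 for S100a8, from -3.56 to 1.95 for S100a9, from -1.67 to 2.86 for Camp, from -0.20 to 1.16 for Ltf, from -2.73 to 0.59 for Lcn2 and from -0.82 to 0.31 for Mmp8. leukemic-mouse HSC minus leukemic-mouse KSL ranged from -0.28 to 0.42 for Lcn2 and from -0.25 to 1.70 for Chil3. The number of all genes called ranged over the alternatives without single arrays left out from 0 to 20 for leukemic-mouse against normal-mouse HSC (18 as reported), from 0 to 125 for the same in KSL (8), from 0 to 7 for the interaction (1), from 0 to 525 for normal-mouse HSC against normal-mouse KSL (328) and from 94 to 1235 for the same in leukemic mice (1067). With single arrays left out it ranged from 0 to 257, 0 to 6, 0 to 68, 20 to 463 and 0 to 1316 in the same order. The cause of these changes was not tested. With 2 arrays per group and deposited values that stop at 10 on the linear scale, differences of Mmp8 and Mmp9 lie near the range the arrays can resolve.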

Other observations

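Megakaryocyte markers lay higher in HSC than in KSL. In leukemic mice 4 of 10 measured members rose in HSC relative to KSL and 0 fell, with a median difference of 2.77, among them Itga2b by 2.70, Gp9 by 1.94 and Pf4 by 2.81 (limma adjusted p = 0.0168, 0.0241 and 0.0366), and 5.86% of all genes passed in that comparison in either direction. With the replicate number as a block 2 of the 10 passed, where 401 of all 18193 genes passed in either direction. The count changed with single arrays left out, as it did over all genes. In normal mice 0 of 10 passed, with a median of 1.25. Their summed linear level was 11893 and 12083 in leukemic-mouse HSC against 5543 and 11031 in normal-mouse HSC, and 1453 and 1693 in leukemic-mouse KSL against 2522 and 4185 in normal-mouse KSL. It was lower on array 1 than on array 2 of normal-mouse HSC, the reverse of S100a9 and Camp.

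Markers of mast cells and basophils lay on the other side. In leukemic mice 3 of 9 measured members fell in HSC relative to KSL and 1 rose, Gata2, with a median of -2.95. Ms4a2, the beta chain of the IgE receptor, fell by 4.02 and the mast cell protease gene Cma1 fell by 2.88 (limma adjusted p = 0.0102 and 0.012), and the same 5.86% of all genes passed. With the replicate number as a block 2 of the 9 were called lower, as were 194 of all 18193 genes. This count changed with single arrays left out, as the number of all genes called did. The lists of B lineage and of T and NK lineage genes had 0 and 0 passing members between leukemic and normal mice in HSC, with medians of 0.54 and 0.09 over 11 measured members each.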
